A study of Mus with 10 samples.

Results

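The genes examined here drive or mark passage through the cell cycle, from the cyclins and kinases of G1 through DNA replication to the spindle proteins of mitosis. They are a list of 55 gene symbols, named by function, of which 54 are among the 24564 genes of the deposited count table. *Cdkn2d* was not analysed here. The 54 genes fall into 7 roles: 7 G1 cyclins and their kinases, 3 inhibitors of cyclin-dependent kinases (CDKs), 5 regulators of transcription and chromatin around RB and E2F, 14 genes of origin licensing and the replication fork, 4 of nucleotide supply, 9 of mitotic entry and exit, and 12 of the spindle, its checkpoint and chromosome structure.

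The cells were type 1 innate lymphoid cells (ILC1s), lymphocytes that reside in the liver, sorted as Lin- NK1.1+ CD49b- CD49a+ cells. *Ncr1+/+* mice carry the normal gene for the activating receptor NKp46, and *Ncr1gfp/gfp* mice carry *gfp* in its place in every cell. All mice were C57BL/6, untreated, male or female, and 6 to 8 weeks old by the study's methods, although its reporting form gives a wider age range. There were 5 *Ncr1+/+* and 5 *Ncr1gfp/gfp* libraries. Staining for NKp46 set the gate of the *Ncr1+/+* cells and GFP that of the *Ncr1gfp/gfp* cells, so the gate and the genotype cannot be told apart. Neither the labels nor the methods say whether a library came from 1 mouse, and figure legends of the study speak of RNA pools, so p-values measure only the spread between these libraries.

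In G1, D-type cyclins bind CDK4 and CDK6, and cyclin E binds CDK2, and these kinases phosphorylate RB and release E2F factors. E2F factors then switch on the genes for replication licensing, the fork and nucleotide synthesis. A later wave, controlled by FOXM1 and related factors, supplies the cyclins, kinases and motor proteins of mitosis. Resting lymphocytes keep the mitotic genes nearly silent, and Ki67, the product of *Mki67*, is the common marker of cells that have left the resting state. The question of the comparison is whether these genes differ between ILC1s with and without NKp46.

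Each library held 15796253 to 22623133 counts, and the totals did not differ between genotypes beyond their spread (two-sided exact permutation test, p = 0.254, where 0.00794 is the smallest p possible). Levels are given as CPM, the counts of a gene scaled to library size by TMM, and 3 counts, taken as the floor of detection, correspond to 0.132 to 0.190 CPM. *Ncr1* itself was at 1913 to 2144 CPM in *Ncr1+/+* and 141 to 356 CPM in *Ncr1gfp/gfp* libraries. The ILC1 genes *Itga1*, *Tnfsf10* and *Cd200r1* were present in every library, the lowest at 120.2 CPM for *Cd200r1*. The natural killer cell factor *Eomes* was at 5.06 to 17.7 CPM. *Ncr1+/+* replicate 1 stood apart from its group in the mitotic genes, so the genotype comparison of each gene and each summed role was also computed without it.

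Among the 54 genes, the levels covered more than 3 orders of magnitude, with the G1 machinery at the top and mitotic genes at the bottom. Per kilobase of exon, averaged over the 10 libraries, *Ccnd2* (cyclin D2) stood at 274 CPM per kilobase, above 99.1% of all tested genes. *Ccnd3* (cyclin D3) followed at 129, *Cdk4* at 80.4 and *Cdkn1b*, which encodes the CDK inhibitor p27, at 51.7 CPM per kilobase. The order of these 4 was the same in every library, since the range of each did not overlap that of the next, and below them every gene overlapped its neighbour in the order. *Pcna*, the sliding clamp of the DNA polymerases, was at 36.2, *Mcm4* at 32.8, *Mcm6* at 30.5 and *Rb1* at 22.5 CPM per kilobase. The highest mitotic genes were far lower, with *Hmgb2*, a chromatin protein of the HMG-box family, at 7.42, *Mki67* at 4.48 and *Top2a*, the topoisomerase that untangles chromosomes, at 4.10 CPM per kilobase. At the low end, *Bub1*, a spindle checkpoint kinase, was at 0.191 and *Ccnb1* (cyclin B1) at 0.119 CPM per kilobase.

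**Figure D1:**
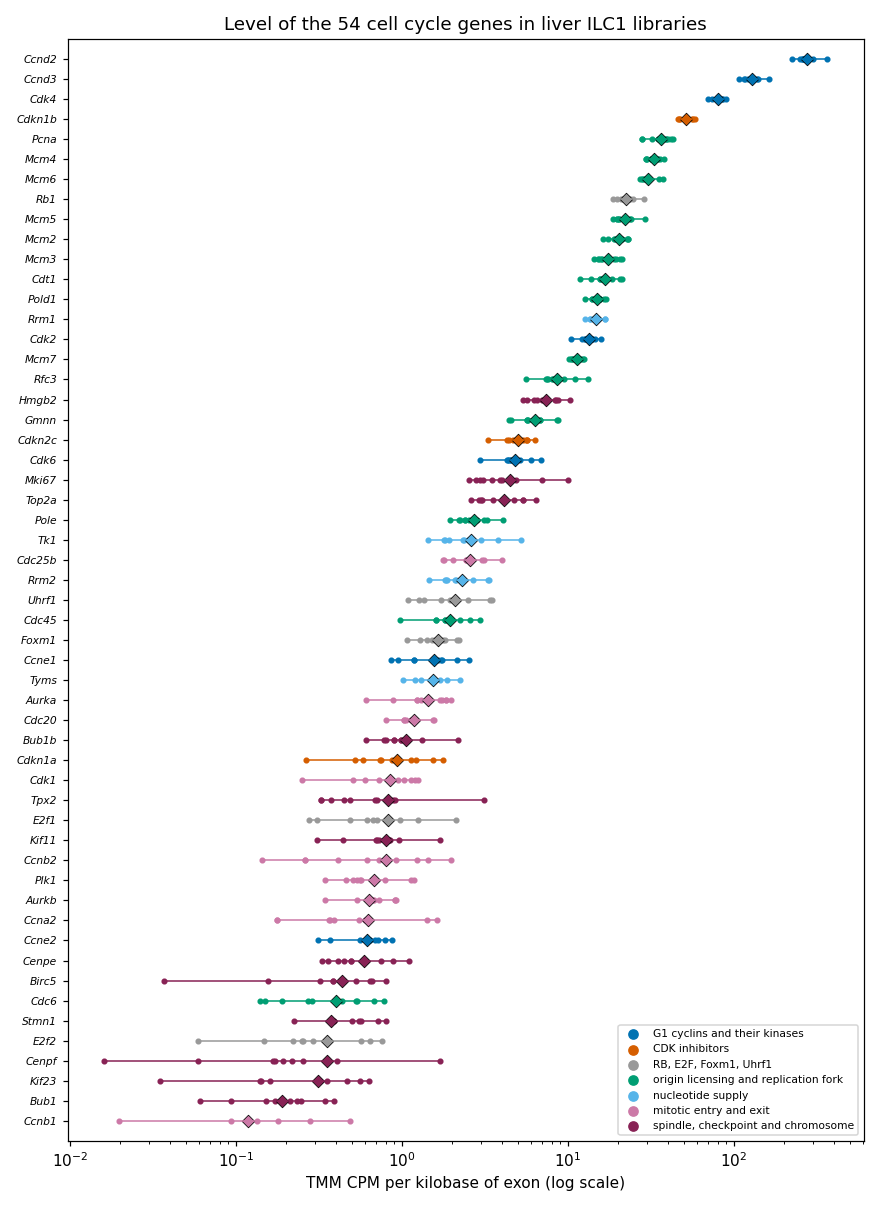
Level of each of the 54 genes, in TMM CPM per kilobase of exon on a log axis, ordered from highest to lowest and coloured by role. Small points are libraries, diamonds the mean of 10 libraries and lines the range, and libraries at 0 are not drawn. *Ccnd2*, *Ccnd3*, *Cdk4* and *Cdkn1b* lie apart at the top, and mitotic genes fill most of the lower end.

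Of the 54 genes, 31 had a mean under 10 CPM, 16 lay between 10 and 100 CPM and 7 were above 100 CPM. *Ccnd2* alone made up 49.4% of their summed CPM. More than 3 counts were found in every library for 47 of them. *Ccnb1* and *Stmn1*, the latter encoding the microtubule-destabilizing protein stathmin, had too few counts for testing. For *Ccnb1* the *Ncr1+/+* replicates 1 to 5 had 20, 7, 13, 0 and 4 counts and the *Ncr1gfp/gfp* replicates 1 to 5 had 0, 1, 0, 0 and 7 counts. For *Stmn1* they were 0, 12, 17, 12 and 0, and 12, 9, 11, 0 and 4 counts. The other 52 genes were tested among 11463 genes.

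None of the 52 tested genes differed between the genotypes at an adjusted p under 0.05 (quasi-likelihood test of edgeR, Benjamini-Hochberg adjusted over 11463 genes), against 1.35% of all tested genes. A call, which also asks for a fold change above 1.5 or below 0.7, was likewise made for 0 of 52, against 0.733% of all genes (0.201% higher and 0.532% lower in *Ncr1gfp/gfp* ILC1s), so that less than 1 call would be met in a list of this length at the background share. At an unadjusted p under 0.05 there were 6 genes, against 11.4% of all genes. *Ccnd2* and *Rb1* were the 2 with a higher value in *Ncr1gfp/gfp* ILC1s (background 5.46%) and *Cdt1*, *Birc5*, *Cenpf* and *Tpx2* the 4 with a lower one (background 5.91%). The smallest adjusted p was 0.131, that of *Ccnd2*. DESeq2, edgeR's likelihood ratio test and limma-voom also found 0 of the 52 at an adjusted p under 0.05. No gene had values that did not overlap between the groups, against 3.11% of all genes.

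The log2 fold change, *Ncr1gfp/gfp* minus *Ncr1+/+*, was below 0 for 35 of the 52 genes, or 67.3%, where 49.3% of all tested genes lay below 0. Its median was -0.08, beside 0.0027 over all genes. Without *Ncr1gfp/gfp* replicate 1, 37 of 53 tested genes lay below 0 and the median was -0.11. Without replicate 1 of both genotypes, an omission chosen after seeing the data, 36 of 53 lay below 0 and the median was -0.09. Over all genes these medians were -0.00058 and 0.0023. Without *Ncr1+/+* replicate 1 alone, 53 genes could be tested, of which 31 lay below 0 (background 49.8%) and the median was -0.07. In that comparison 0 of 53 genes had an adjusted p under 0.05 by edgeR (background 0.875%), 0 were called (0.515%), 0 had values without overlap (4.13%) and 2, *Ccnd2* and *Rb1*, had an unadjusted p under 0.05 (10.4%). For 21 genes the 95% interval of the fold change lay inside 0.7 to 1.5, against 68.5% of all genes, and for 20 genes, most of them mitotic, it reached a 2-fold difference in some direction. For most mitotic genes these libraries were therefore not precise enough to exclude a 2-fold difference. RNA was measured in bulk, so fewer cells in cycle and less RNA per cell in cycle cannot be told apart.

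**Figure D2:**
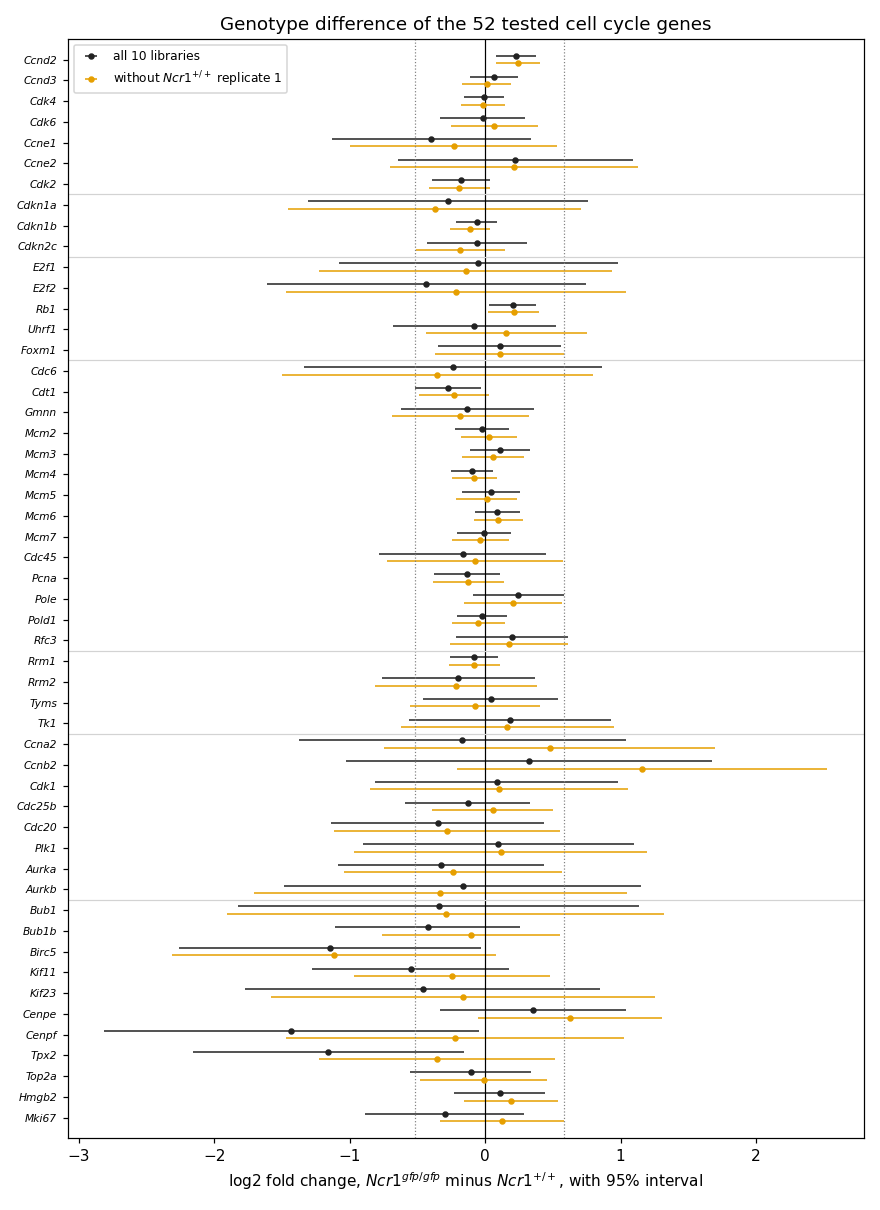
Log2 fold change, *Ncr1gfp/gfp* minus *Ncr1+/+*, of the 52 tested genes with 95% intervals, for all 10 libraries in black and without *Ncr1+/+* replicate 1 in orange. Dotted lines mark folds of 0.7 and 1.5, and grey lines separate the roles. Of the tested genes, the interval reaches a 2-fold difference for 2 of 7 G1 genes, 1 of 14 licensing and fork genes, 6 of 8 genes of mitotic entry and exit and 8 of 11 spindle genes, among which *Cenpf* and *Tpx2* move towards 0 without that library.

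The G1 cyclins and their kinases comprised the most abundant transcripts, and their genotype differences were small. *Ccnd2* lies on chromosome 6 from 127075727 to 127101066, minus strand, in the coordinates of the table, whose genome build is not named. In replicates 1 to 5, *Ncr1+/+* ILC1s had 1514, 1452, 1295, 1486 and 1528 CPM and *Ncr1gfp/gfp* ILC1s had 1640.0, 2109, 1739.9, 1497 and 1545 CPM. Of the *Ncr1gfp/gfp* libraries, 4 lay above every *Ncr1+/+* library, with replicate 2 the highest, and replicate 4 lay among them. The means were 1455 ± 94.2 and 1706 ± 244 CPM (SD, n = 5 each) and the log2 fold change was 0.23 (standard error 0.07, 95% interval 0.08 to 0.38, adjusted p = 0.131, edgeR's quasi-likelihood test). Without *Ncr1+/+* replicate 1 it was 0.24 (adjusted p = 0.176 by edgeR), and without *Ncr1gfp/gfp* replicate 2 it was 0.14.

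*Ccnd3* had 243, 259, 295, 315 and 313 CPM in *Ncr1+/+* and 281, 369, 300.4, 265 and 273 CPM in *Ncr1gfp/gfp* replicates 1 to 5, again with *Ncr1gfp/gfp* replicate 2 the highest. The groups overlapped over most of their range, and the log2 fold change was 0.06 (95% interval -0.11 to 0.24). *Cdk4*, the kinase partner of the D cyclins, had 114, 104, 115, 113 and 127 CPM in *Ncr1+/+* and 114, 123, 121, 99.8 and 111 CPM in *Ncr1gfp/gfp* libraries. Its log2 fold change was -0.01 (95% interval -0.16 to 0.14), an interval that leaves no room for the fold thresholds of a call. *Cdk6*, the second such kinase, had 68.9, 52.6, 52.1, 55.1 and 49.2 CPM in *Ncr1+/+* and 50.7, 79.6, 50.03, 34.2 and 59.3 CPM in *Ncr1gfp/gfp* libraries. The spread of *Cdk6* was wider in *Ncr1gfp/gfp* libraries, from 34.2 in replicate 4 to 79.6 in replicate 2, around nearly the same mean (log2 fold change -0.02, 95% interval -0.33 to 0.30).

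*Cdk2*, the partner of cyclins E and A, had a mean of 34.4 ± 2.88 CPM in *Ncr1+/+* and 30.5 ± 3.28 CPM in *Ncr1gfp/gfp* ILC1s (SD, n = 5 each), which gave a log2 fold change of -0.18 (adjusted p = 0.546 by edgeR). The E cyclins were scarce. *Ccne1* had means of 3.48 and 2.63 CPM and a log2 fold change of -0.40 (95% interval -1.13 to 0.34). *Ccne2* had 1.79, 2.03, 2.30, 1.01 and 2.07 CPM in *Ncr1+/+* and 2.22, 1.97, 2.81, 2.56 and 1.19 CPM in *Ncr1gfp/gfp* libraries, with full overlap and a log2 fold change of 0.22 (95% interval -0.65 to 1.09). *Ccne2* overlaps *Ints8* on the opposite strand over 5622 bases of the table's gene spans, and *Ccnd3* overlaps *Bysl* over 358, introns included; whether their exons overlap was not tested. Summed over the 7 genes, the level was 1949.8 ± 104 CPM in *Ncr1+/+* and 2208 ± 308 CPM in *Ncr1gfp/gfp* ILC1s (SD, n = 5 each), a ratio of 1.13, with *Ccnd2* the largest part of the sum.

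The CDK inhibitors, which hold the kinases of G1 in check, were present throughout. *Cdkn1b* had 111, 136, 141, 134 and 113 CPM in *Ncr1+/+* and 122, 113, 123, 127 and 123 CPM in *Ncr1gfp/gfp* replicates 1 to 5. All 5 *Ncr1gfp/gfp* values lay inside the *Ncr1+/+* range, and the log2 fold change was -0.06 (standard error 0.07, 95% interval -0.22 to 0.09, adjusted p = 0.833 by edgeR). *Cdkn2c*, which encodes p18, an inhibitor of CDK4 and CDK6, had 7.40, 10.985, 14.3, 12.9 and 12.1 CPM in *Ncr1+/+* and 12.6, 9.96, 9.64, 10.5 and 12.8 CPM in *Ncr1gfp/gfp* libraries. *Ncr1+/+* replicate 1 was the lowest of the 10 libraries here, and the log2 fold change was -0.06 with it and -0.18 without it.

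*Cdkn1a*, which encodes p21, the inhibitor induced by p53, was near 2 CPM. It had 1.51, 1.059, 2.30, 2.47 and 3.16 CPM in *Ncr1+/+* and 1.52, 1.78, 3.60, 1.19 and 0.536 CPM in *Ncr1gfp/gfp* libraries. *Ncr1gfp/gfp* replicates 3 and 5 were the highest and the lowest of all 10 libraries, and the 95% interval of the log2 fold change ran from -1.31 to 0.76. All 3 inhibitors had a log2 fold change below 0, and none had an unadjusted p under 0.05.

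Of the regulators around RB and E2F, *Rb1* was by far the most abundant. Its product, the retinoblastoma protein, restrains E2F factors until G1 kinases phosphorylate it. *Rb1* is listed on chromosome 14 from 73595309 to 73725598, minus strand, and had 99.4, 101, 101, 86.7 and 96.5 CPM in *Ncr1+/+* and 90.9, 108, 110.2, 133 and 115 CPM in *Ncr1gfp/gfp* replicates 1 to 5. Of the *Ncr1gfp/gfp* libraries, 4 lay above every *Ncr1+/+* library and replicate 1 lay below 4 of the 5. The log2 fold change was 0.20 (standard error 0.08, 95% interval 0.03 to 0.38, unadjusted p = 0.0245, adjusted p = 0.328, edgeR's quasi-likelihood test). *Lpar6*, a receptor gene with 48005 counts in the table, lies on the opposite strand, and the gene spans share 2468 bases, introns included; whether their exons overlap, and so whether reads could be shared, was not tested.

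*E2f1*, an activator of S phase genes, had 1.91, 2.21, 1.5, 0.858 and 6.53 CPM in *Ncr1+/+* and 3.87, 3.02, 2.06, 2.62 and 0.952 CPM in *Ncr1gfp/gfp* libraries. Replicate 5 was the highest *Ncr1+/+* library and the lowest *Ncr1gfp/gfp* library, and without *Ncr1+/+* replicate 5 the log2 fold change went from -0.05 to 0.63. *E2f2*, a second activator, had 3.196, 1.81, 1.10, 1.26 and 2.83 CPM in *Ncr1+/+* and 3.81, 1.46, 0.741, 0.297 and 1.25 CPM in *Ncr1gfp/gfp* libraries. In each genotype replicate 1 was the highest, and the log2 fold change of -0.43 had a 95% interval of -1.61 to 0.74. *Foxm1*, the activator of mitotic genes, had means of 6.90 ± 1.85 and 7.44 ± 1.33 CPM (SD, n = 5 each), and *Uhrf1*, which carries DNA methylation through replication, had 7.88 ± 3.29 and 7.46 ± 3.08 CPM (SD, n = 5 each), in *Ncr1+/+* and *Ncr1gfp/gfp* ILC1s.

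Origins are licensed when CDC6 and CDT1 load the MCM2 to MCM7 helicase, and geminin (*Gmnn*) blocks CDT1 afterwards. The 6 MCM genes were among those measured with narrow intervals. Their levels lay between 11.3 and 32.8 CPM per kilobase, and their log2 fold changes between -0.10 and 0.11. The 95% intervals of all 6 fell between -0.25 and 0.33, inside the fold thresholds of a call, and the smallest adjusted p was 0.71 (edgeR's quasi-likelihood test). *Mcm2* had 78.1, 71.3, 54.8, 63.5 and 76.7 CPM in *Ncr1+/+* and 68.7, 77.8, 68.0, 65.3 and 59.2 CPM in *Ncr1gfp/gfp* replicates 1 to 5. Both its highest and its lowest library were *Ncr1+/+*, and its log2 fold change was -0.02 (95% interval -0.22 to 0.18).

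*Mcm5* had 67.8, 81.3, 64.4, 76.2 and 83.2 CPM in *Ncr1+/+* and 70.4, 99.7, 76.4, 68.0 and 69.5 CPM in *Ncr1gfp/gfp* libraries. Apart from replicate 2, the *Ncr1gfp/gfp* libraries lay inside the *Ncr1+/+* range (log2 fold change 0.04, 95% interval -0.17 to 0.26). *Pcna*, on chromosome 2 from 132075022 to 132078916, had 49.1, 50.3, 40.6, 52.9 and 45.4 CPM in *Ncr1+/+* and 53.9, 49.3, 43.9, 35.1 and 35.1 CPM in *Ncr1gfp/gfp* libraries. *Ncr1gfp/gfp* replicate 1 was the highest of all and replicates 4 and 5 the lowest, giving a log2 fold change of -0.13 (95% interval -0.37 to 0.11). RefSeq lists pseudogenes of *Pcna*, *Tyms*, *Ccnd3*, *Ccnb1* and *Ccnb2* and related copies of *Stmn1*, so that reads of these genes may have been left out or split in counting.

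*Cdt1*, the licensing factor, had the smallest unadjusted p of the replication genes, with means of 39.9 ± 5.32 CPM in *Ncr1+/+* and 33.0 ± 5.46 CPM in *Ncr1gfp/gfp* ILC1s (SD, n = 5 each). The difference on the log2 scale was -0.27 (standard error 0.12, 95% interval -0.52 to -0.03, unadjusted p = 0.0308, adjusted p = 0.353 by edgeR), and -0.23 without *Ncr1+/+* replicate 1 (adjusted p = 0.552). *Gmnn*, at means of 6.46 and 5.88 CPM, and *Cdc6*, at 2.04 and 1.73 CPM, had log2 fold changes of -0.13 and -0.23. *Pole*, the catalytic subunit of the leading-strand polymerase, had 15.6, 17.2, 13.9, 18.2 and 23.2 CPM in *Ncr1+/+* and 28.9, 22.4, 15.9, 20.3 and 17.0 CPM in *Ncr1gfp/gfp* libraries. It had the largest value above 0 among the replication genes, 0.25 (95% interval -0.09 to 0.58), with *Ncr1gfp/gfp* replicate 1 the highest library, and 0.10 without that library.

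The other fork genes were *Pold1* of the lagging-strand polymerase, with a log2 fold change of -0.02, the clamp loader subunit *Rfc3*, at 0.20, and *Cdc45*, a part of the active helicase, at -0.17. In nucleotide supply, *Rrm1*, the large subunit of ribonucleotide reductase, had means of 60.6 ± 3.78 and 57.3 ± 6.33 CPM, while its S phase partner *Rrm2* had 5.33 ± 1.25 and 4.65 ± 1.57 CPM (SD, n = 5 each) in *Ncr1+/+* and *Ncr1gfp/gfp* ILC1s. The thymidylate genes *Tyms* and *Tk1* had log2 fold changes of 0.04 and 0.18. The 14 licensing and fork genes together summed to 657 ± 30.2 CPM in *Ncr1+/+* and 654 ± 63.8 CPM in *Ncr1gfp/gfp* ILC1s (SD, n = 5 each), a ratio of 0.995. Among the *Ncr1gfp/gfp* libraries, replicate 1 was the highest for 8 of these 14 genes, a place it held for 23.1% of all tested genes. The 4 nucleotide genes summed to a ratio of 0.955.

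**Figure D3:**
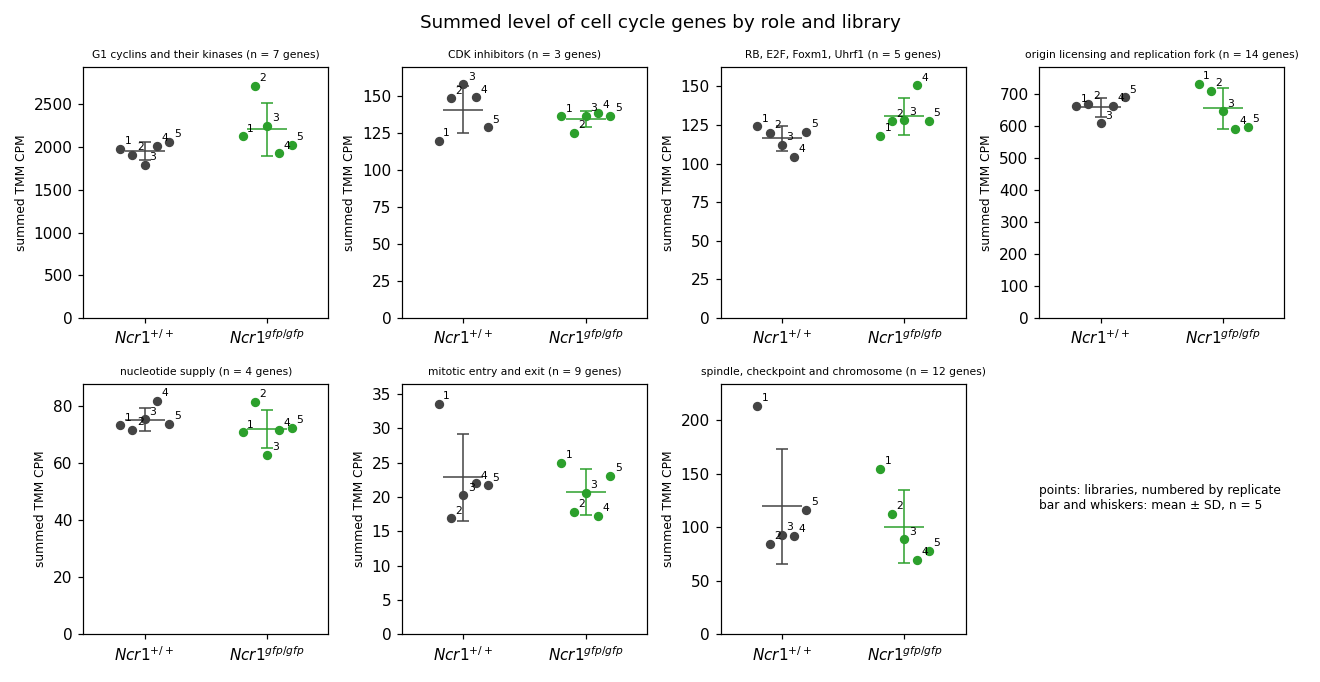
Summed TMM CPM of the genes of each role in each library, with libraries numbered by replicate and bars for mean ± SD (n = 5 per genotype); each axis starts at 0. In the spindle role *Ncr1+/+* replicate 1, at 213 CPM, lies above the other 9 libraries, of which the next is *Ncr1gfp/gfp* replicate 1 at 154 CPM.

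The genes of mitotic entry and exit were low in every library, with a median over genes of 2.11 CPM. *Cdk1*, the kinase of mitotic entry, had 2.47, 1.72, 1.45, 2.93 and 3.27 CPM in *Ncr1+/+* and 3.43, 2.70, 3.60, 0.714 and 2.08 CPM in *Ncr1gfp/gfp* replicates 1 to 5. The highest and the lowest were both *Ncr1gfp/gfp* libraries, and the log2 fold change was 0.09 (95% interval -0.81 to 0.98). *Ccna2* (cyclin A2), the partner of CDK2 and CDK1, had 5.49, 1.24, 0.60, 1.87 and 2.01 CPM in *Ncr1+/+* and 4.76, 0.594, 1.32, 1.25 and 2.08 CPM in *Ncr1gfp/gfp* libraries. In both genotypes replicate 1 was more than 2 times any other library of that genotype, and the log2 fold change of -0.17 became 0.48 without *Ncr1+/+* replicate 1 and -0.77 without *Ncr1gfp/gfp* replicate 1. The gene spans of *Ccna2* and of *Exosc9* on the opposite strand share 863 bases.

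*Ccnb2* (cyclin B2) had 3.03, 0.221, 0.400, 0.404 and 1.41 CPM in *Ncr1+/+* and 1.91, 0.640, 0.953, 1.13 and 2.20 CPM in *Ncr1gfp/gfp* libraries. *Ncr1+/+* replicate 1 was the highest and *Ncr1+/+* replicates 2, 3 and 4 the lowest, and the log2 fold change was 0.33 (95% interval -1.03 to 1.68), or 1.16 without *Ncr1+/+* replicate 1 (adjusted p = 0.580 by edgeR). *Ccnb1*, for which no test was made, was at 1.12, 0.309, 0.650, 0 and 0.218 CPM in *Ncr1+/+* and 0, 0.0457, 0, 0 and 0.417 CPM in *Ncr1gfp/gfp* libraries, so that 4 of the 5 *Ncr1gfp/gfp* libraries were at or under the floor of 3 counts.

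The remaining genes of this role are the phosphatase *Cdc25b*, which activates CDK1, the activator of the anaphase-promoting complex *Cdc20*, and the mitotic kinases *Plk1*, *Aurka* and *Aurkb*. Their log2 fold changes were -0.13, -0.35, 0.10, -0.33 and -0.17, and the smallest of their adjusted p-values was 0.820 (edgeR's quasi-likelihood test). For 6 of the 8 tested genes the 95% interval reached a 2-fold difference. The role summed to 22.9 ± 6.31 CPM in *Ncr1+/+* and 20.8 ± 3.34 CPM in *Ncr1gfp/gfp* ILC1s (SD, n = 5 each), a ratio of 0.907 that became 1.03 without *Ncr1+/+* replicate 1.

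*Mki67*, on chromosome 7 from 142881471 to 142908062, minus strand, had 101, 28.1, 39.2, 31.2 and 49.4 CPM in *Ncr1+/+* and 70.8, 40.7, 35.3, 25.7 and 29.6 CPM in *Ncr1gfp/gfp* replicates 1 to 5. Replicate 1 was the highest library of each genotype, and the other 4 libraries of each overlapped, from 28.1 to 49.4 and from 25.7 to 40.7 CPM. The means were 49.7 ± 29.7 and 40.4 ± 17.9 CPM (SD, n = 5 each) and the log2 fold change was -0.30 (standard error 0.28, 95% interval -0.89 to 0.29, adjusted p = 0.780, edgeR's quasi-likelihood test). Its direction turned without *Ncr1+/+* replicate 1, at 0.13, and kept without *Ncr1gfp/gfp* replicate 1, at -0.59, and without both, at -0.16.

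*Top2a*, on chromosome 11 from 98854261 to 98885503, had 28.0, 15.6, 18.3, 21.1 and 27.9 CPM in *Ncr1+/+* and 33.5, 24.8, 15.8, 13.6 and 15.2 CPM in *Ncr1gfp/gfp* libraries. The highest library was *Ncr1gfp/gfp* replicate 1, and 3 *Ncr1gfp/gfp* libraries lay near or below the lowest *Ncr1+/+* library. The log2 fold change was -0.11 (95% interval -0.55 to 0.34) with all libraries and -0.35 without *Ncr1gfp/gfp* replicate 1. *Hmgb2* had means of 19.2 ± 3.75 and 20.7 ± 4.89 CPM (SD, n = 5 each) and a log2 fold change of 0.11.

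The genes with the lowest values were kinetochore and spindle genes, and 2 of the 3 with the lowest rested on *Ncr1+/+* replicate 1. *Cenpf*, which encodes a kinetochore protein, is listed on chromosome 1 from 191464493 to 191511965 and had 18.8, 0.662, 1.85, 4.54 and 2.83 CPM in *Ncr1+/+* and 3.94, 2.15, 2.44, 1.90 and 0.179 CPM in *Ncr1gfp/gfp* libraries. *Ncr1+/+* replicate 1 was more than 4 times any other library, and the log2 fold change went from -1.43 (95% interval -2.81 to -0.05, unadjusted p = 0.0434, adjusted p = 0.414 by edgeR) to -0.22 without it. *Tpx2*, a spindle assembly factor that activates Aurora A, is on chromosome 2 from 152673700 to 152721057 and had 13.6, 1.63, 1.95, 3.84 and 3.97 CPM in *Ncr1+/+* and 3.11, 3.02, 2.12, 1.43 and 1.43 CPM in *Ncr1gfp/gfp* libraries. The same library was more than 3 times any other, and the log2 fold change went from -1.16 (95% interval -2.16 to -0.16, unadjusted p = 0.0252, adjusted p = 0.330 by edgeR) to -0.35 without it.

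*Birc5*, which encodes survivin, a subunit of the chromosomal passenger complex, differed from these in that no *Ncr1+/+* library stood out. It lies on chromosome 11 from 117710551 to 117717057 and had 2.24, 2.74, 2.20, 1.82 and 1.31 CPM in *Ncr1+/+* and 0.127, 1.10, 1.54, 1.31 and 0.536 CPM in *Ncr1gfp/gfp* libraries. Only *Ncr1gfp/gfp* replicate 3 clearly exceeded the lowest *Ncr1+/+* library, and *Ncr1gfp/gfp* replicate 1 was under the floor of 3 counts. The log2 fold change was -1.15 (standard error 0.54, 95% interval -2.26 to -0.03, unadjusted p = 0.0441, adjusted p = 0.415 by edgeR) and -1.12 without *Ncr1+/+* replicate 1 (unadjusted p = 0.0658, adjusted p = 0.528).

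*Kif11*, the motor that separates the spindle poles, had 8.19, 4.01, 3.35, 3.43 and 4.08 CPM in *Ncr1+/+* and 3.49, 3.88, 4.66, 1.49 and 2.14 CPM in *Ncr1gfp/gfp* libraries. *Kif23*, a motor of cytokinesis, had 2.19, 0.485, 0.550, 1.92 and 1.09 CPM and 1.21, 1.10, 0.476, 0.119 and 1.61 CPM. Their log2 fold changes of -0.55 and -0.46 became -0.24 and -0.16 without *Ncr1+/+* replicate 1. *Cenpe*, a kinetochore motor, had the largest value above 0 of all 52 genes. It had 6.90, 2.82, 3.50, 3.84 and 3.21 CPM in *Ncr1+/+* and 5.84, 8.68, 2.59, 4.76 and 3.87 CPM in *Ncr1gfp/gfp* libraries. Its log2 fold change was 0.35 (95% interval -0.34 to 1.04), or 0.63 without *Ncr1+/+* replicate 1 (adjusted p = 0.534 by edgeR). Without *Ncr1gfp/gfp* replicate 2, its highest library, it was 0.07. The checkpoint genes *Bub1b* and *Bub1* had log2 fold changes of -0.42 and -0.34, and *Bub1b* changed to -0.11 without *Ncr1+/+* replicate 1.

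**Figure D4:**
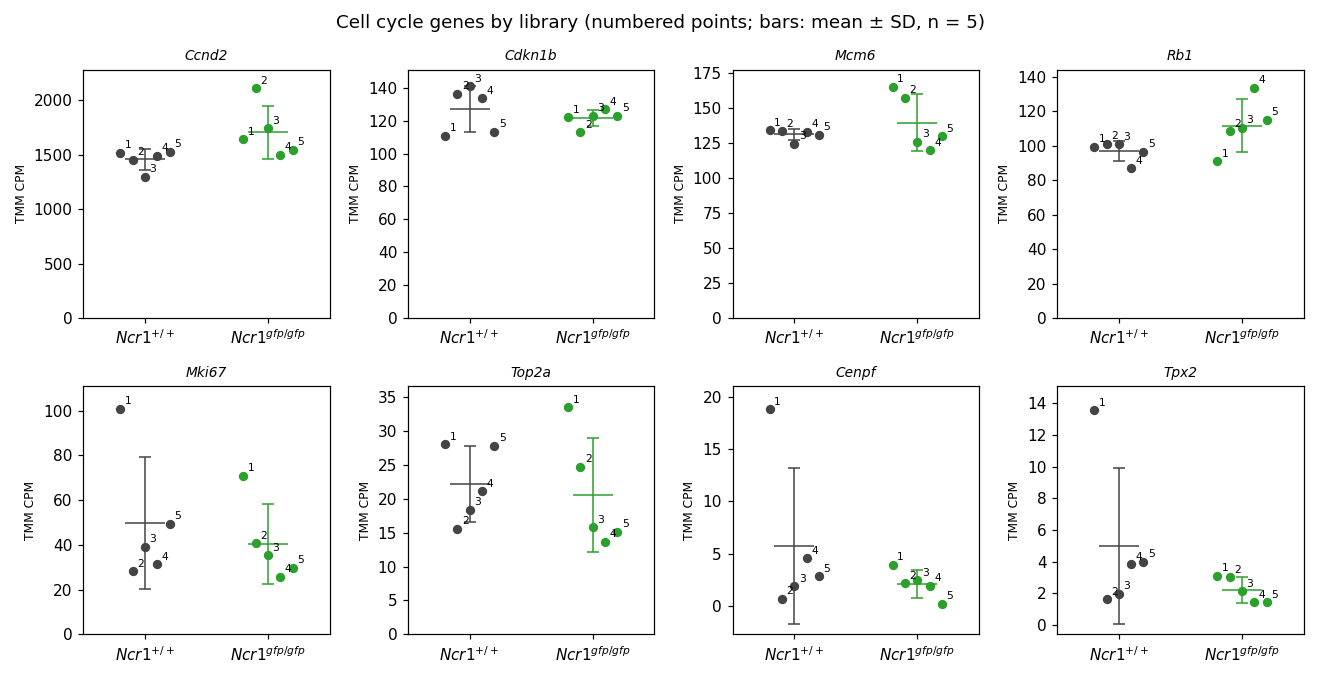
TMM CPM of 8 of the genes in each library, with libraries numbered by replicate, bars for mean ± SD (n = 5 per genotype) and axes that include 0. The genotypes overlap in all 8 genes, and *Ncr1+/+* replicate 1 is the highest library for *Mki67*, *Cenpf* and *Tpx2*.

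Summed over the 12 genes of the spindle role, the *Ncr1+/+* replicates 1 to 5 had 213, 84.3, 92.7, 91.7 and 116 CPM and the *Ncr1gfp/gfp* replicates 1 to 5 had 154, 112, 88.8, 69.6 and 78.0 CPM. Replicate 1 led in both genotypes, and the remaining libraries overlapped between 69.6 and 116 CPM. The means were 119.6 ± 53.7 and 101 ± 34.1 CPM (SD, n = 5 each), a ratio of 0.841. Without *Ncr1+/+* replicate 1 the *Ncr1+/+* mean was 96.2 ± 13.8 CPM (SD, n = 4) and the ratio was 1.05, or 0.06 on the log2 scale. With that library kept and *Ncr1gfp/gfp* replicate 1 left out, the log2 ratio was -0.46. The direction thus depended on which replicate 1 was left out. *Mki67* supplied a large part of this sum. Over the other 20 genes of both mitotic roles the ratio was 0.872, and 1.02 without *Ncr1+/+* replicate 1. For these 20 genes the omission of *Ncr1gfp/gfp* replicate 1 was not computed.

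*Ncr1+/+* replicate 1 was the highest *Ncr1+/+* library for 9 of the 11 tested spindle genes and for 5 of the 8 genes of mitotic entry and exit, where it held that place for 25.5% of all tested genes. For G1 genes it did so for 2 of 7 and for licensing and fork genes for 3 of 14. Its spindle genes had a median of 2.20 times the median of the other *Ncr1+/+* libraries, while the median over all tested genes was 0.998 times. *Ncr1gfp/gfp* replicate 1 had a spindle median of 1.53 times that of the other libraries of its genotype. The median coefficient of variation of spindle genes in *Ncr1+/+* ILC1s was 43.9% with replicate 1 and 25.6% without it, beside 11.8% that counting error alone would give. In *Ncr1gfp/gfp* ILC1s, with all libraries kept, this median was 44.3%.

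**Figure D5:**
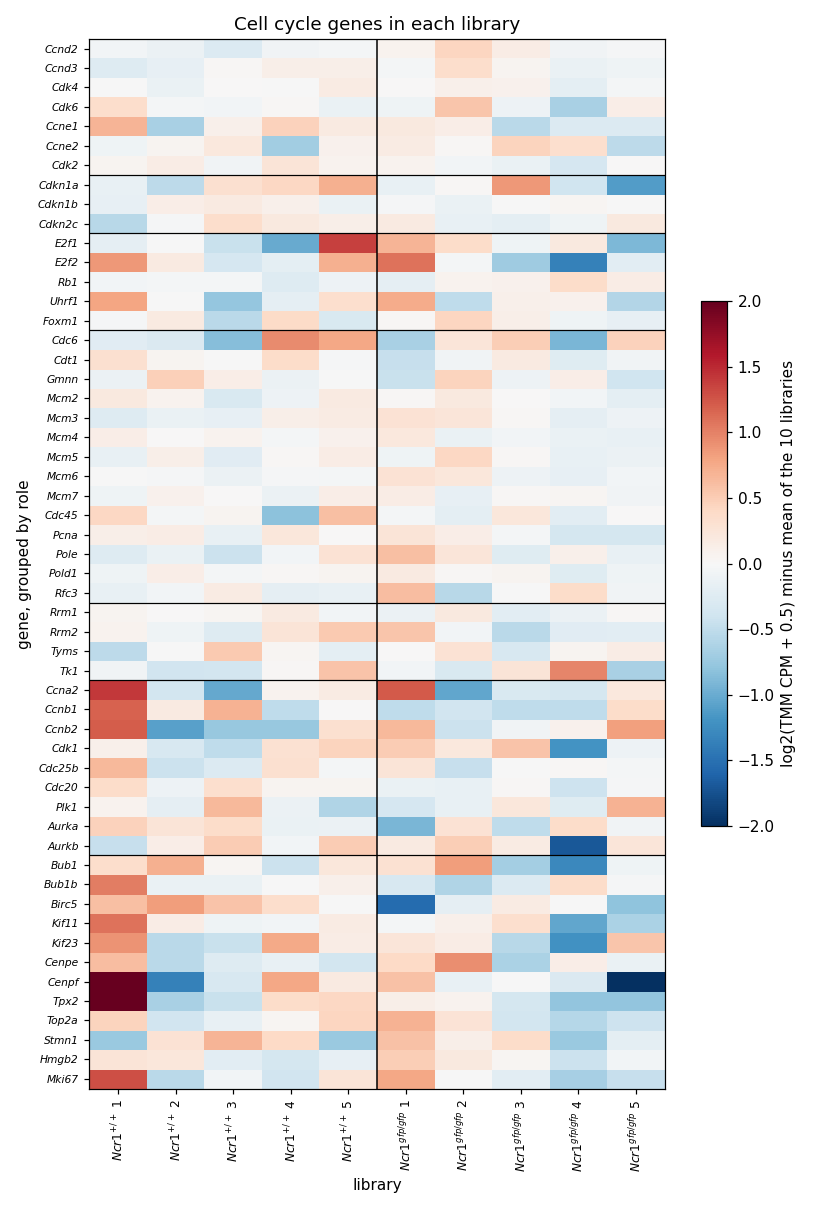
Each of the 54 genes (rows, grouped by role from G1 at the top to the spindle at the bottom) in each of the 10 libraries (columns), as log2(TMM CPM + 0.5) minus the mean of the gene over the 10 libraries. Red stands for above and blue for below that mean. The lower rows are reddest in replicate 1 of *Ncr1+/+*. Among the upper rows, abundant genes such as *Ccnd2* and *Cdk4* are pale throughout, while scarce ones such as *Cdkn1a*, *E2f1* and *E2f2* are coloured in some libraries.

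Markers of other cells were measured beside these values, and their part in the results was not tested. Of the 10 erythroid markers 5 were at 0 in every library, and the summed level of the list was 0.505 to 10.9 CPM in *Ncr1+/+* and 0 to 2.44 CPM in *Ncr1gfp/gfp* libraries. The 8 neutrophil markers summed to at most 0.202 CPM in *Ncr1+/+* and 12.2 CPM in *Ncr1gfp/gfp* libraries. The 10 hepatocyte markers summed to 135 to 179 and 123 to 206 CPM, highest in *Ncr1+/+* replicate 1 and *Ncr1gfp/gfp* replicate 3, and *Alb*, their defining gene, was at 28.0 and 38.0 CPM in these 2 libraries and at most 4.69 CPM in the others. *Trf* supplied most of the hepatocyte sum in every library, at 120 to 146 CPM. The 10 natural killer cell markers summed to 483 to 489 and 472 to 529 CPM, of which *Prf1* supplied most, at 325 to 380 CPM.

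The 8 T cell markers found summed to 461 to 579 CPM in *Ncr1+/+* and 633 to 835 CPM in *Ncr1gfp/gfp* libraries, of which *Cd3g* supplied most. *Cd3e*, at 2.80 to 6.85 and 9.05 to 38.8 CPM, and *Cd8a*, at 1.35 to 9.70 and 11.8 to 36.4 CPM, were the 2 of them that were called higher in *Ncr1gfp/gfp* ILC1s (adjusted p = 0.00235 and 0.0248 by edgeR). *Cd3g* was also higher there, by less than the fold of a call (log2 fold change 0.45, adjusted p = 0.00169 by edgeR). *Ncr1+/+* replicate 1 was the lowest of all 10 libraries for *Cd3e*, *Cd3d* and *Cd8a*. It was not the lowest for *Cd3g*, at 452 CPM, or *Cd4*, at 0.897 CPM, and it was the highest for *Cd8b1*, at 0.841 CPM. *Cd5* and *Cd6* were at 0 CPM in it and in some other libraries. The 9 ILC1 markers summed to 9732 to 9965 and 7826 to 8260 CPM with *Ncr1* and, without it, to 7660.2 to 8042 and 7655 to 8019.7 CPM, where the genotypes overlapped. Among them *Gzmc*, a granzyme, was called higher in *Ncr1gfp/gfp* ILC1s (log2 fold change 0.72, adjusted p = 0.00186 by edgeR), and *Itga1* rose by less than the fold of a call (log2 fold change 0.32, adjusted p = 0.000481 by edgeR). The 9 B and plasma cell markers summed to 4.04 to 10.7 and 6.67 to 9.69 CPM. The 10 macrophage and monocyte markers summed to 10.5 to 67.9 and 7.18 to 49.2 CPM. The 10 liver endothelium markers summed to 113 to 148 and 128 to 153 CPM, of which *Pecam1* supplied most, at 111 to 149 CPM.

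Other genes of the same pathways behaved alike in that none reached an adjusted p under 0.05 (edgeR's quasi-likelihood test). Of 48 further replication genes, such as subunits of the origin recognition complex, GINS and replication protein A, 47 were tested, of which 20 lay below 0 and 27 above, with a median log2 fold change of 0.04. Of 62 further mitosis genes, such as subunits of the NDC80 complex and condensin, 54 were tested, with 30 below and 24 above 0 and a median of -0.06, which became 0.06 without *Ncr1+/+* replicate 1. Of 48 further G1 control genes, among them the other pocket proteins and E2F factors, 44 were tested, with 19 below and 25 above 0 and a median of 0.04. Of 21 quiescence genes and p53 targets 20 were tested, with 12 below and 8 above 0 and a median of -0.02. At an unadjusted p under 0.05 there were 1 of 47, 5 of 54, 6 of 44 and 5 of 20 genes, beside the background of 11.4%. Values without overlap between the genotypes were found for 0 of 47, 1 of 54, 1 of 44 and 2 of 20 genes, beside a background of 3.11%.

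The smallest adjusted p-values in these lists belonged to 3 genes that were chosen for naming after their values were seen. *Txnip*, which encodes a thioredoxin-binding protein that restrains glucose uptake, had 652, 715, 685, 701 and 621 CPM in *Ncr1+/+* and 773, 784, 733, 774 and 774 CPM in *Ncr1gfp/gfp* replicates 1 to 5. Its values did not overlap between the genotypes, and the log2 fold change was 0.19 (95% interval 0.09 to 0.28, adjusted p = 0.0540 by edgeR). *Mxd1*, which encodes an antagonist of MYC for the partner protein MAX, had 129, 123, 136, 142 and 131 CPM and 113, 114, 113, 117 and 112 CPM, again without overlap, and a log2 fold change of -0.22 (adjusted p = 0.0805 by edgeR). *Myc* itself, a driver of growth and entry into the cycle, had 105, 78.4, 81.2, 84.7 and 90.1 CPM and 79.9, 64.7, 69.9, 75.5 and 65.6 CPM, with *Ncr1gfp/gfp* replicate 1 above *Ncr1+/+* replicate 2. Its log2 fold change was -0.30 (adjusted p = 0.0902 by edgeR). Without *Ncr1+/+* replicate 1 the log2 fold changes of *Txnip*, *Mxd1* and *Myc* were 0.17, -0.23 and -0.23. Their adjusted p-values by edgeR were then 0.125, 0.108 and 0.237.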

How the data were processed

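RNA-seq counts of 10 libraries of liver ILC1s were analysed, 5 per genotype. By the study's methods, cDNA was amplified from 2 ng of RNA with a SMART-Seq v4 kit, which does not mark strand, and read for 51 cycles. After trimming, the authors aligned reads to mm10 with STAR, ran HTSeq at default settings and deposited the raw counts per gene without normalization. Reads with several matching positions are not counted by HTSeq. The gene coordinates in the table do not match those of mm10, and their build is not named. The members and gene lists were chosen with earlier results of these data known, so no list was tested as a whole.

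Genes were filtered with filterByExpr, which kept 11463 of 24564 genes, scaled by TMM and tested with edgeR 4.0.16 (R 4.3.3, limma 3.58.1) by the quasi-likelihood test with Benjamini-Hochberg adjustment. A call needed an adjusted p under 0.05 and a fold above 1.5 or below 0.7. Intervals at 95% use the standard error derived from the F statistic. Levels per kilobase divide CPM by the exon length in the table. The scripts were tested on simulated data. Alternatives used DESeq2 1.42.0, voom, other scalings and filters, the replicate number as a block and the omission of each library. Values per library were given for a fixed set of 18 regulators and markers found in the table, for genes with an adjusted p under 0.05 or without overlap, of which there were none, and for the 5 largest log2 fold changes in each direction. Replicates of a genotype differed beyond sampling noise (chi-square per gene 9.03 to 23.1 over 20 pairs). Depth was 15796253 to 22623133 counts per library, and the floor of 3 counts covers counting error only.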

Additional observations from a re-analysis of the deposited data

Results flagged for a closer look

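A library was flagged where its distance to the nearest library of its genotype took up more than 0.71 of that genotype's range. Chance passes this limit in about 1 of 20 groups of 5 normally distributed values. The limit was applied to CPM without a log scale, and its rate for low, skewed counts was not tested. Of 120 groups examined, 12 passed the limit where about 6 would at that rate. High values of *Ncr1+/+* replicate 1 made up 7 of the 12. These were *Ccna2* at 5.49 CPM (the next library had 2.01), *Bub1b* at 8.02 CPM (3.97), *Kif11* at 8.19 CPM (4.08), *Cenpe* at 6.90 CPM (3.84), *Cenpf* at 18.8 CPM (4.54) and *Tpx2* at 13.6 CPM (3.97), and the summed level of the 12 spindle genes at 213 CPM (116). The groups are not independent, since the spindle sum holds 5 of the genes flagged singly.

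The 5 others came from 4 libraries. *E2f1* was at 6.53 CPM in *Ncr1+/+* replicate 5 (next 2.21), *Mcm4* at 137 CPM in *Ncr1gfp/gfp* replicate 1 (next 113) and *Mcm5* at 99.7 CPM in *Ncr1gfp/gfp* replicate 2 (next 76.4). *Aurkb* was at 0 CPM in *Ncr1gfp/gfp* replicate 4 where the next library had 1.32 CPM, and the 3 CDK inhibitors summed to 125 CPM in *Ncr1gfp/gfp* replicate 2 where the next library had 136 CPM.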

How the results depend on the processing

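Over 980 values of single genes under other settings, 922 kept their direction and side of the threshold, 57 turned their direction, 46 of them when 1 library was left out, and 1 passed the threshold: *Ccnd2* with no filter on low counts (adjusted p = 0.0274 by edgeR), the only setting in which 1 gene of the list had an adjusted p under 0.05. Calls over all genes were 84, against 138 with the likelihood ratio test, 131 with no filter, 155 with no fold threshold, 126 with DESeq2 and 60 to 98 with a library left out, with 0 of the list called in any of them. Genes of the list with an unadjusted p under 0.05 were 6, against 3 with voom, 3 without replicate 1 of both genotypes, an alternative chosen after seeing the data, and 2 to 7 with a library left out. In the log2 ratio of summed levels, the G1 genes went from 0.18 to -0.015 and the RB and E2F genes from 0.17 to -0.027 when log2 CPM was averaged over genes. With a library left out, the ratio ran from -0.46 to 0.06 for spindle genes, -0.23 to 0.04 for mitotic entry and exit, -0.05 to 0.03 for licensing and fork genes, 0.09 to 0.23 for G1 genes, 0.11 to 0.20 for RB and E2F genes, -0.12 to -0.02 for CDK inhibitors and -0.12 to -0.02 for nucleotide supply. The cause of these moves was not tested, beyond what the omission of a library shows by construction.

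Between samples of the same replicate number, the correlation of deviations was 0.06, -0.01, -0.0055, -0.03 and -0.03 for numbers 1 to 5. Only the samples numbered 1 matched each other best. With a single correlation per number, these values cannot decide whether the numbers mark pairs or a shared batch. With the number as a block in edgeR, 87 genes were called in place of 84, 4 genes of the list had an unadjusted p under 0.05 in place of 6, and the log2 fold change of *E2f1* was 0.25. With voom it was -0.012 for *Ccnd3*, -0.00995 for *Mcm5*, 0.035 for *Cdc45*, -0.020 for *Tyms*, 0.088 for *Ccna2* and -0.069 for *Cdk1*. Without replicate 1 of both genotypes it was 0.10 for *Cdk6*, 0.026 for *Mcm2*, -0.059 for *Tyms* and -0.029 for *Cdk1*.

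Over the 10 omissions of a single library, the log2 fold change crossed 0 for 23 genes: *Ccnd3* (-0.025 to 0.10), *Cdk4* (-0.043 to 0.035), *Cdk6* (-0.19 to 0.11), *Cdkn2c* (-0.18 to 0.031), *E2f1* (-0.27 to 0.63), *Uhrf1* (-0.33 to 0.16), *Foxm1* (-0.0028 to 0.24), *Cdc6* (-0.45 to 0.088), *Mcm2* (-0.095 to 0.026), *Mcm5* (-0.069 to 0.086), *Mcm7* (-0.051 to 0.029), *Cdc45* (-0.35 to 0.0014), *Pold1* (-0.074 to 0.033), *Tyms* (-0.076 to 0.22), *Tk1* (-0.16 to 0.40), *Ccna2* (-0.77 to 0.48), *Cdk1* (-0.082 to 0.32), *Cdc25b* (-0.25 to 0.055), *Plk1* (-0.17 to 0.39), *Aurkb* (-0.37 to 0.15), *Top2a* (-0.35 to 0.0094), *Hmgb2* (-0.015 to 0.22) and *Mki67* (-0.59 to 0.13). Of the 54 genes, 31 had a mean under 10 CPM; over the 52 tested genes the median coefficient of variation was 25.6% in *Ncr1+/+* and 28.8% in *Ncr1gfp/gfp* libraries, beside 8.86% from counting error.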
